A study of Mus musculus with 18 samples.

Results

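A pair of histone marks that are often described as opposed, H3K27me3 and H3K36me2, were compared along the genome of untreated mouse embryonic stem cells. The comparison used 4 of the 18 libraries of the series: 2 chromatin immunoprecipitation libraries for H3K27me3 and 2 for H3K36me2, chosen by mark and treatment from the labels and by no measured value. All came from E14 cells, an established pluripotent line with no engineered allele named, grown on gelatin in 2i/LIF, a medium that holds the cells undifferentiated with the cytokine LIF and with inhibitors against the kinases MEK and GSK3. The medium carried light, medium or heavy forms of arginine and lysine, and which form each library's cells received was not given. Untreated cells are labelled with neither EPZ-6438 nor DMSO, and no foreign chromatin was added. The same comparison was repeated in 4 libraries, 2 per mark, from cells kept for 7 days in DMSO, the solvent of the inhibitor, with Drosophila S2 chromatin mixed in at 0.05%. At the edges of H3K27me3 domains, 2 H3K36me2 libraries from cells given 10 µM EPZ-6438, an inhibitor of EZH2, for 7 days were added. Untreated libraries of H3K27me1, H3K27me2 and H3K36me3, 2 each, described the surroundings.

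The lysine 27 mark is placed by Polycomb repressive complex 2 (PRC2), whose catalytic subunit is EZH2 or EZH1, and in embryonic stem cells it covers the promoters of silent developmental regulators. H3K36me2 is placed broadly by NSD1 and related methyltransferases, and SETD2 converts it to H3K36me3 along transcribed genes. Methyl groups on lysine 36 hinder PRC2 on the same histone tail, which is why the marks are usually drawn as excluding each other.

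Levels are given per library as multiples of that library's own mean over chromosomes 1 to 19, so 1 is the genome average, and the log2 ratio is that of H3K27me3 to H3K36me2 on this scale after 0.1 was added. A ratio of 0 therefore means equal enrichment over each mark's own average, not equal numbers of methylated histones. A promoter was the windows centred within 1 kb of the 5′ end of a protein-coding gene model, and a gene body ran from 2 kb past that end to the 3′ end in genes of 5 kb or more. Features with a mean level of at least 0.2 were tested with limma and called where the p-value, adjusted by Benjamini and Hochberg's method, was under 0.05. Strand was known for 16456 of 20661 autosomal genes, none of them on chromosome 18, and only these have promoter and body values. The labels do not say whether replicates came from separate cultures, so the p-values measure only the spread between these libraries, which may be technical. With 1 library left out, that spread came only from the mark that kept 2 libraries. A call could then be lost or gained through precision alone.

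Estimated depth was 25.4 M and 21.2 M reads for H3K27me3 and 50.9 M and 30.7 M for H3K36me2 (replicates 1 and 2), so 1 read in a 1 kb window was worth 0.0743, 0.0890, 0.0371 and 0.0616 of the genome average. Replicates ranked promoters alike, with a Spearman correlation of 0.947 for H3K27me3 and 0.943 for H3K36me2. Their reads differed beyond sampling noise (chi-square over its degrees of freedom, 1.86 and 1.72), and they were kept as separate libraries. RNA was not analysed here, and the cell type was read from H3K36me3 over the whole gene. It was 1.18 to 7.66 times the genome average over 8 pluripotency markers (median 6.0), against 0.248 to 1.92 over 6 fibroblast, 0.401 to 1.2 over 5 primitive endoderm, 1.08 to 3.38 over 5 trophoblast and 0.683 to 2.30 over 5 neural markers. H3K27me3 was 0 to 2.27 over the pluripotency markers, 0.301 to 7.41 over fibroblast, 1.34 to 7.53 over primitive endoderm, 2.22 to 12.2 over trophoblast and 4.77 to 15.9 over neural markers, so only the neural range lay clear of the pluripotency range, whose highest value was that of Esrrb.

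The promoters below show the range that the comparison covers. Neurog2 and Nkx2-4, regulators of neural fate and of the ventral forebrain, carried H3K27me3 with little H3K36me2. Hoxd12, a patterning gene, carried both. Pou5f1, which encodes the pluripotency factor OCT4, and Prrc2b and Phkg1 carried H3K36me2 with next to no H3K27me3. The sequences are the RefSeq promoters (GRCm38.p6), 250 bases before to 50 after the listed start, written 5′ to 3′ on the gene's strand with each CG dinucleotide in capitals. They lie at chr3:127632886-127633185 (plus strand, Neurog2), chr2:147085296-147085595 (minus, Nkx2-4), chr2:74674763-74675062 (plus, Hoxd12), chr17:35505782-35506081 (plus, Pou5f1), chr2:32150898-32151197 (plus, Prrc2b) and chr5:129879039-129879338 (minus, Phkg1).
Neurog2: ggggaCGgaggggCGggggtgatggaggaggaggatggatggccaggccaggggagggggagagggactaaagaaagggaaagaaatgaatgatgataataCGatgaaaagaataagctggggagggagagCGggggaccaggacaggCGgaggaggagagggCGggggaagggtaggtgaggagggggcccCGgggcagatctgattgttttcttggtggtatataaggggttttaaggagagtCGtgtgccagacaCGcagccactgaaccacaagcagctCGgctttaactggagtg
Nkx2-4: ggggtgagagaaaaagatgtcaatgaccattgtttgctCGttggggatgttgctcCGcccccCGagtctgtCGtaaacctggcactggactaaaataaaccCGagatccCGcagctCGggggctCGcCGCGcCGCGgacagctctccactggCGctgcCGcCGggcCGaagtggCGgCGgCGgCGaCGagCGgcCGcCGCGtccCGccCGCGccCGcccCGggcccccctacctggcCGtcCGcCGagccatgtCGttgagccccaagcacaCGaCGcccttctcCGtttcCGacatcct
Hoxd12: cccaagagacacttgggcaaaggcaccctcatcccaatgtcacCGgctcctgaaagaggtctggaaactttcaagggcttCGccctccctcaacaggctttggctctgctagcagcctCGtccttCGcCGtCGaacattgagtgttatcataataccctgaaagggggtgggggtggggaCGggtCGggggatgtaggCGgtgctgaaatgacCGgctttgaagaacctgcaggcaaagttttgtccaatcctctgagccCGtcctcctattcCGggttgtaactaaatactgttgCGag
Pou5f1: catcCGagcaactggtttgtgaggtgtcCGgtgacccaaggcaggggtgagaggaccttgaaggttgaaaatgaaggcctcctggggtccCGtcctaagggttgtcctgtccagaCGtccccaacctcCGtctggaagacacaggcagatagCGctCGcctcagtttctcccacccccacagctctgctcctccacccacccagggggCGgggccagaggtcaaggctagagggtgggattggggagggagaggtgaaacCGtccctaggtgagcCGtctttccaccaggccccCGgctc
Prrc2b: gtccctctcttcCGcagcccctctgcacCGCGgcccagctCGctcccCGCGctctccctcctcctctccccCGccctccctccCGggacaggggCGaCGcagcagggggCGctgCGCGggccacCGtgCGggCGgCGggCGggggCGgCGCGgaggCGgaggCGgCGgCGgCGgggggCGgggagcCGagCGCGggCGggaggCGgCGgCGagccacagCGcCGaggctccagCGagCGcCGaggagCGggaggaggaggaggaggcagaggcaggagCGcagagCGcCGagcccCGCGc
Phkg1: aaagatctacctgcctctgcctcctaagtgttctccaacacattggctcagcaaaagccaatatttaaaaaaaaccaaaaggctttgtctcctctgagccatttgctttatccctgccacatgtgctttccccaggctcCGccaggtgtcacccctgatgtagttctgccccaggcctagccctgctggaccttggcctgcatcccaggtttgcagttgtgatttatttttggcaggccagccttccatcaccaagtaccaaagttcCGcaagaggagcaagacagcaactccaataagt

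These windows hold 10, 38, 13, 11, 45 and 2 CG dinucleotides in that order. Over all 14810 listed promoters of the genes analysed that start within 1 kb of the gene model's 5′ end, the median was 14 and 59.1% held 10 or more. Neither side of the comparison was uniform in CG content: the poorest and the richest of the 6 sequences both belong to promoters with high H3K36me2.

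Most promoters differed between the marks. Of 15189 promoters tested, 12368 were called (81.4%). H3K27me3 was the higher mark at 4314 of them (28.4%), and H3K36me2 at 8054 (53%). The median log2 ratio was -0.92, and the 10th and 90th percentiles were -3.10 and 2.10. The median promoter level was 0.483 and 0.489 in the H3K27me3 libraries and 1.36 and 1.19 in the H3K36me2 libraries, yet 27.7% and 27.8% of promoters reached 2 times the genome average for H3K27me3 against 27.8% and 20.2% for H3K36me2. H3K27me3 was near absent at many promoters and very high at some, up to 21.1 and 22.5, while H3K36me2 stayed within a narrower range, up to 6.63 and 5.86. Where each library was divided by its autosomal median in place of its mean, the median ratio over all promoters moved up to -0.44 and the calls to 5121 and 6981. Ratios near 0 therefore have no fixed sign, and of the gene list medians given below only that of the vomeronasal receptors changed sign with the scaling.

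**Figure D1:**
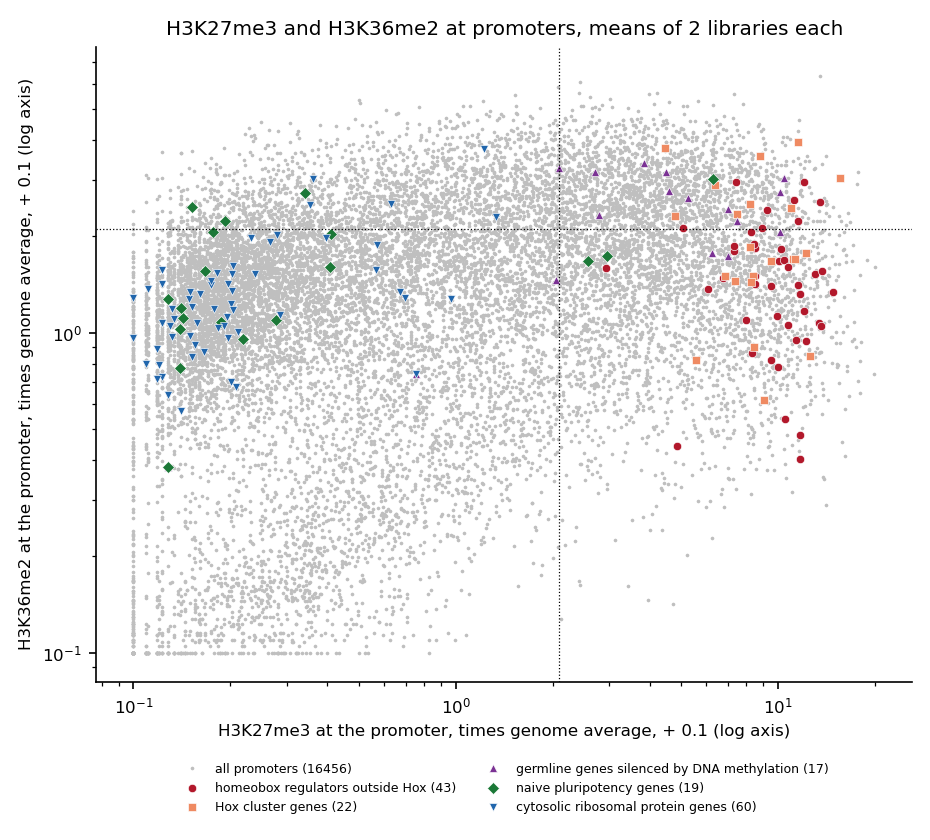
Level of H3K27me3 (x axis) against H3K36me2 (y axis) at 16456 promoters, each the mean of 2 untreated libraries in multiples of the genome average plus 0.1, on log axes, with dotted lines at 2 times the average. The listed homeobox genes and the Hox genes sit at the right, ribosomal protein and most naive pluripotency genes at the left, and germline genes towards the upper right.

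At the promoters with the highest ratio H3K27me3 was high and H3K36me2 low. Trhde, which encodes an enzyme that degrades thyrotropin-releasing hormone, had 13.4 and 14.7 times the average H3K27me3 and 0.195 and 0.185 times the average H3K36me2, a log2 ratio of 5.61 ± 0.24 (SE). Neurog2, the proneural factor shown above, had 16.1 and 15.3 against 0.389 and 0.324, a ratio of 5.12 ± 0.25. Nkx2-4 had 12.1 and 11.2 against 0.25 and 0.354, a ratio of 4.88 ± 0.26. The rule that selected these promoters fixed that the libraries of the 2 marks do not overlap.

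The other 7 promoters named by the same rule were those of Gabbr2 (a GABA-B receptor subunit), Sorcs3 (a neuronal sorting receptor), Nrg3 (a neuregulin), Pcdh10 (a protocadherin), Adgrl3 (latrophilin 3), Hs3st2 (a heparan sulfate sulfotransferase) and Dll4 (a Notch ligand), with ratios from 4.89 to 5.34. Adgrl3 had the lowest H3K27me3 of these, 4.07 and 5.23, and reached its ratio with 0.0371 and 0.0462 of H3K36me2. All 10 had an adjusted p of 2.08e-05 in limma, the lowest value that any promoter reached. In the DMSO libraries, which took no part in the choice, their ratios ran from 4.46 to 5.24.

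At the other end H3K36me2 was high and H3K27me3 was close to 0. Epp13, an epididymal protein gene, had 0 and 0.0445 of H3K27me3 against 3.94 and 3.22 of H3K36me2, a ratio of -4.93 ± 0.28. Phkg1, the muscle phosphorylase kinase catalytic subunit, had 0.0371 and 0.0445 against 3.30 and 2.74 (-4.46 ± 0.25), and Prrc2b had 0.0743 and 0 against 2.76 and 2.74 (-4.43 ± 0.31). The other members were Brd3, which binds acetylated histones, Mcl1, an anti-apoptotic BCL2 relative, Parn, a poly(A)-specific ribonuclease, Capns1, the small calpain subunit, Gstp3, a glutathione transferase, Thtpa, a thiamine triphosphatase, and Lrrc2, with ratios from -4.69 to -4.41. In DMSO all 10 kept the sign, with smaller ratios of -3.51 to -2.56. The size of a ratio on this side is limited by depth, since these H3K27me3 levels rest on about 1 read per window or less. Brd3 and Mcl1 have a RefSeq promoter 32.3 and 1.78 kb from the gene model's 5′ end, where the ratios were -2.93 and -3.14.

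**Figure D2:**
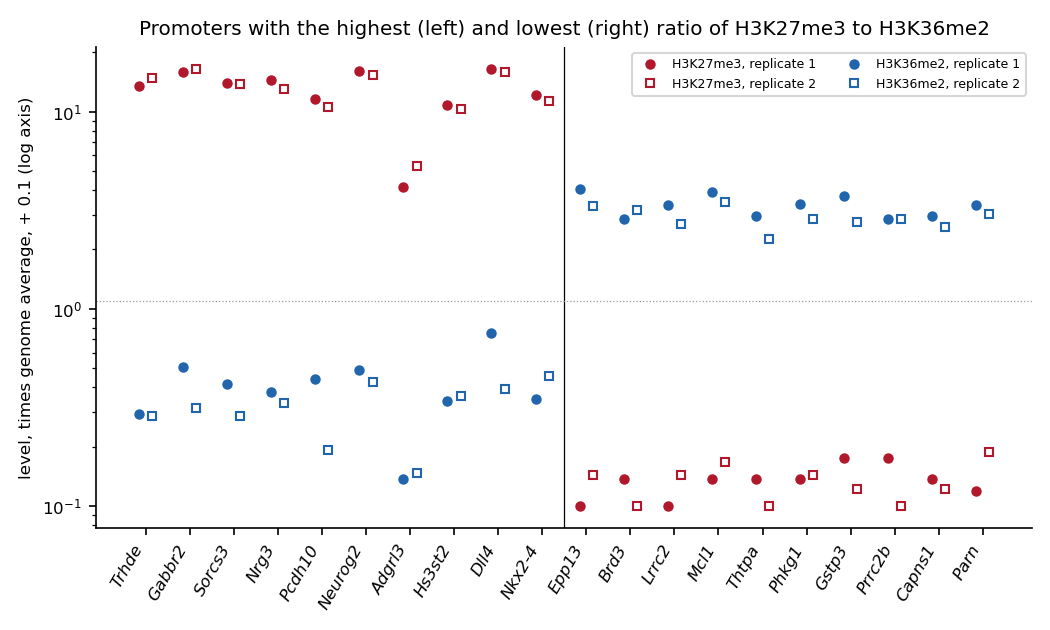
Level plus 0.1 (log axis, multiples of the genome average) in each of the 4 untreated libraries at the 10 promoters with the highest and the 10 with the lowest ratio. Filled circles are replicate 1 and open squares replicate 2. The promoters with the highest ratio include Trhde, at 13.4 and 14.7 for H3K27me3 and 0.195 and 0.185 for H3K36me2, and that the marks do not overlap was set by the selection.

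Calls were compared between the gene model's 5′ end and the RefSeq start. At the 14810 genes whose RefSeq promoter starts within 1 kb of the gene model's end, the promoter windows overlap, so agreement was largely built in. There 99.1% of promoters called H3K27me3 higher and 99.4% of those called H3K36me2 higher had the same call at the RefSeq start. At the 1646 genes where the starts lie farther apart, 69.1% and 76.1% did. Named genes of the second kind are given with both values where the sign changes.

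The developmental transcription factors listed here had H3K27me3 as the higher mark at their promoters, with few exceptions. These lists and those below were chosen with earlier results of these data known, so a count describes the genes listed. The homeobox list left out the Hox clusters and also Pou5f1 and Nanog, which lay on the H3K36me2 side and are given below. Over the whole gene, both H3K27me3 libraries were above both H3K36me2 libraries in 59 of its 61 genes and below them in 2. All 43 oriented members of this list were called H3K27me3 higher, against 28.4% of all promoters tested. Their median log2 ratio was 2.75, against -0.92. They ranged from Gbx2, a hindbrain factor (2.54 and 3.14 of H3K27me3, 1.77 and 1.22 of H3K36me2, ratio 0.90), through Nkx6-2 (2.75) to Nkx2-4. The call of Gbx2 was lost without H3K36me2 replicate 2 (0.65, limma adjusted p = 0.126). On a list of 22 forkhead genes, whole-gene H3K27me3 was above H3K36me2 in 21 and below it in 1, by the same measure. Against the same 28.4%, the promoters of all 12 oriented members of this list were called (median 3.44). Foxd1, a kidney stroma factor, was highest, with 9.06 and 9.99 against 0.380 and 0.247 (4.56). Of 22 Pax, Gata, Tbx and Sox genes on the list, 21 were called (median 2.43), with Sox11 highest (4.18). T, the mesoderm factor Brachyury, was near the middle (12.6 and 10.4 against 2.44 and 1.62, ratio 2.47). Sox2 was not on this list and is given below with the pluripotency genes, where it lay on the H3K36me2 side. The exception on the list, Sox21, was low in both marks and had a ratio of -0.58 ± 0.54 (limma adjusted p = 0.347). It was called H3K27me3 higher in DMSO (0.90, adjusted p = 0.00696) and H3K36me2 higher without H3K27me3 replicate 2 (-1.12, adjusted p = 0.00139, both limma). Pax6, the eye and forebrain factor, had 11.6 and 16 against 2.35 and 1.93 (2.62 ± 0.28). Gata6, the primitive endoderm factor, has a value over the whole gene only, 3.29 and 3.56 of H3K27me3 against 1.57 and 1.44 of H3K36me2.

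Over the whole gene, both H3K27me3 libraries were above both H3K36me2 libraries in 37 of 39 Hox genes and below them in 1. Of these 39 genes, 22 could be oriented. H3K27me3 was the higher mark at 21 of these and no Hox promoter was called H3K36me2 higher (median ratio 2.36), against 28.4% and 53% of all promoters. The Hox genes differed in how much H3K36me2 lay under their H3K27me3. Hoxd1 had 11.7 and 13.3 of H3K27me3 with 0.825 and 0.663 of H3K36me2 (3.91). Hoxd12 in the same cluster had 15.2 and 15.7 with 3.59 and 2.31 (2.39). Hoxc4 had 3.36 and 5.38 with 3.63 and 3.71, so the libraries of the marks overlapped and it was not called (0.21 ± 0.29, limma adjusted p = 0.525). In DMSO it was called H3K27me3 higher (1.39, limma adjusted p = 0.00337), and all 22 Hox promoters were, against 30.6% of all promoters there. Without H3K36me2 replicate 2, 19 of the 22 were called. In all, 7 of the 22 were at 2 or more in all 4 libraries, and 12 were so for H3K27me3 alone.

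Signalling and tissue genes were also mostly on the H3K27me3 side, with more exceptions. Their counts are read against 28.4% H3K27me3 higher and 53% H3K36me2 higher over all promoters. Of 15 Wnt ligands, 14 were called H3K27me3 higher (median 2.59), with Wnt3 at the median (14.6 and 14.8 against 2.68 and 2.07) and Wnt4, which acts in kidney and ovary, highest (16.7 and 16.5 against 0.463 and 0.601, ratio 4.73). Wnt6 was called the other way (-1.03, not called with the autosomal median), but its gene model starts 17.6 kb from its RefSeq promoter, where the ratio was 3.19. H3K27me3 was higher at 32 of 35 keratin promoters (median 2.03) and at 45 of 55 potassium channel promoters (2.02), with 0 and 6 called the other way. The channel Kcnk15 had the highest ratio of the second list, 4.56, and Kcnk5 the lowest, -2.55. Among 26 listed glutamate and GABA receptor genes 22 were called H3K27me3 higher and 2 lower (median 1.85). Gabbr2, given above with a higher ratio than any of these, was not on the list. The metabotropic receptor Grm7 was highest of the list (7.41 and 7.18 against 0.111 and 0.339, ratio 4.60). Grik5, a kainate receptor, was lowest at -3.79, and had a ratio of 0.99 at its RefSeq promoter.

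Housekeeping and self-renewal genes lay on the other side, where 53% of all promoters also lay, with 28.4% H3K27me3 higher. Of 60 ribosomal protein promoters, 57 were called H3K36me2 higher and none H3K27me3 higher, with a median of -2.69. The median promoter of this list had 0.0557 and 0.0667 of H3K27me3 and 1.29 and 0.940 of H3K36me2, the latter near the genome average. Rpl24, a large subunit protein, had the lowest ratio, -3.69. The value nearest 0 was that of Rpl10l (-0.03 ± 0.31), a testis-expressed copy of a ribosomal gene, which was called H3K36me2 higher with promoters of 2.5 kb (-0.87, limma adjusted p = 0.00204). Of 37 DNA replication and cell cycle promoters, 36 were called H3K36me2 higher (median -2.71), among them the clamp loader subunit Rfc5 (0.0186 and 0.0667 against 2.32 and 1.96, ratio -3.99). Gapdh, the glycolytic enzyme, had 0.111 in both H3K27me3 libraries against 1.58 and 1.39 (-2.90). Zinc finger genes of the Zfp series, 240 of 295 called H3K36me2 higher (median -2.40), included Zfp874a at -4.40, and 26 were called H3K27me3 higher, led by Zfp618 at 3.92.

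Of 18 naive pluripotency promoters, 15 were called H3K36me2 higher, against 53% of all promoters, and 2 H3K27me3 higher (median -2.70). Pou5f1 had 0.0371 and 0.0667 of H3K27me3 and 2.77 and 1.96 of H3K36me2, a ratio of -4.01 ± 0.28. Sox2 (0.111 and 0.0222 against 1.61 and 1.31) and Nanog (0.149 and 0.467 against 1.75 and 1.26), which act with it, had ratios of -3.27 and -2.08. Klf2 stood at the middle of the list with -2.53. Esrrb, an orphan receptor of the same network, was called H3K27me3 higher: its promoter had 6.17 and 6.27 of H3K27me3 as well as 3.5 and 2.34 of H3K36me2 (1.09 ± 0.28, limma adjusted p = 0.00627), and its body had 4.5 of H3K36me3. The call was lost without H3K36me2 replicate 2 (0.81, limma adjusted p = 0.0586), as was that of Nanog without H3K36me2 replicate 1 (-1.86, adjusted p = 0.0727). The other promoter called H3K27me3 higher was that of the chromatin-associated factor Utf1, named after its values were seen (0.76 ± 0.25, limma adjusted p = 0.0203), and without H3K36me2 replicate 2 none of the list was called H3K27me3 higher. Of 13 genes of the next developmental stages 6 were called H3K27me3 higher and 3 H3K36me2 higher (median 0.50), against 28.4% and 53% of all promoters. Nodal, a ligand of the early embryo, had the lowest ratio, -3.20. The de novo DNA methyltransferase Dnmt3b had 3.53 and 3.51 against 2.87 and 2.10 and was not called (0.50 ± 0.26, limma adjusted p = 0.109), but was called H3K27me3 higher with the autosomal median (0.98, adjusted p = 0.0302), with voom (0.45, adjusted p = 0.0371) and with a pseudocount of 0.5 (0.44, adjusted p = 0.0324). Lin28b was highest at 3.85, and its RefSeq promoter 16.1 kb away had -0.35.

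The genes for the machinery of the marks are read against the shares over all promoters, 53% H3K36me2 higher and 28.4% H3K27me3 higher. Of 12 PRC2 genes 10 were called H3K36me2 higher and 1 H3K27me3 higher (median -2.33). Ezh2 had 0.0929 and 0.0445 against 0.695 and 0.509 (-2.06 ± 0.28), and Ezh1 was lowest (-3.31). Phf19, a Polycomb-like accessory subunit that also reads H3K36 methylation, was the exception, with 8.93 and 8.45 of H3K27me3 and 2.44 and 2.27 of H3K36me2 (1.84 ± 0.24). Among 16 PRC1 genes 10 were called H3K36me2 higher and 3 H3K27me3 higher (median -1.58), with Pcgf5, a subunit of variant PRC1, highest (9.55 and 9.99 against 0.788 and 0.771, ratio 3.49) and L3mbtl2, another variant PRC1 subunit, lowest (-3.69). Without H3K36me2 replicate 1, 6 PRC1 promoters were called H3K36me2 higher, and in DMSO 8 and 5 were called. None of 10 H3K36 methyltransferase and demethylase genes was called H3K27me3 higher and 8 were called H3K36me2 higher (median -1.91), including Setd2 (0.149 and 0.0534 against 1.68 and 0.740, ratio -2.64) and the demethylase Kdm4a (-3.33). Without H3K36me2 replicate 1 fewer members of this list were called H3K36me2 higher, and the median of the 9 tested was -1.58. In DMSO 6 of 10 were called H3K36me2 higher and 1 H3K27me3 higher (median -1.01), against 47.3% and 30.6% of all promoters there. Riox1, a further member, missed the threshold (0.70, limma adjusted p = 0.0609) and was called H3K27me3 higher under 8 alternatives, with a limma adjusted p of 0.021 in DMSO and 0.0116 with the autosomal median. Nsd1 could not be oriented; over the whole gene it had 0.0490 and 0.0369 of H3K27me3, 0.529 and 0.512 of H3K36me2 and 4.61 of H3K36me3. Of 11 readers of H3K36 methylation 7 were called H3K36me2 higher and 1 H3K27me3 higher (median -1.68), and of 11 DNA methylation and Tet genes 6 and 1 were called (median -2.02). The 1 promoter of the last list called H3K27me3 higher, Tet3 (2.03), had -0.18 at a RefSeq promoter 15.5 kb away.

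Sensory receptor families had little of either mark. Of 934 oriented olfactory receptor promoters only 640 reached the filter, and 830 of 934 were high in neither mark, against 55.1% of all promoters. Of the 640, 298 were called H3K27me3 higher and 113 H3K36me2 higher (median 0.61), against 28.4% and 53% of all promoters. Without H3K36me2 replicate 1 the counts were 192 and 75, and without replicate 2 227 and 60. Olfr638 was highest, with 1.91 and 2.58 against 0.185 and 0.0616 (3.43), and Olfr697 lowest (-3.28). Of 320 vomeronasal receptors 93 reached the filter, and 30 and 33 were called (median -0.11). The first count is a share close to the 28.4% over all promoters. The counts were 15 and 20 without H3K36me2 replicate 1, 21 and 14 without replicate 2 and 18 and 26 without H3K27me3 replicate 2. The sign of that median depended on the scaling: it was 0.95 with division by the autosomal median, where 74 and 19 were called. Keratins and channel genes, by contrast, stood at 5.55 and 5.78 and at 5.93 and 5.89 of H3K27me3 in the median, and receptors at 0.297 and 0.4 (olfactory) and 0.0743 and 0.111 (vomeronasal).

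**Figure D3:**
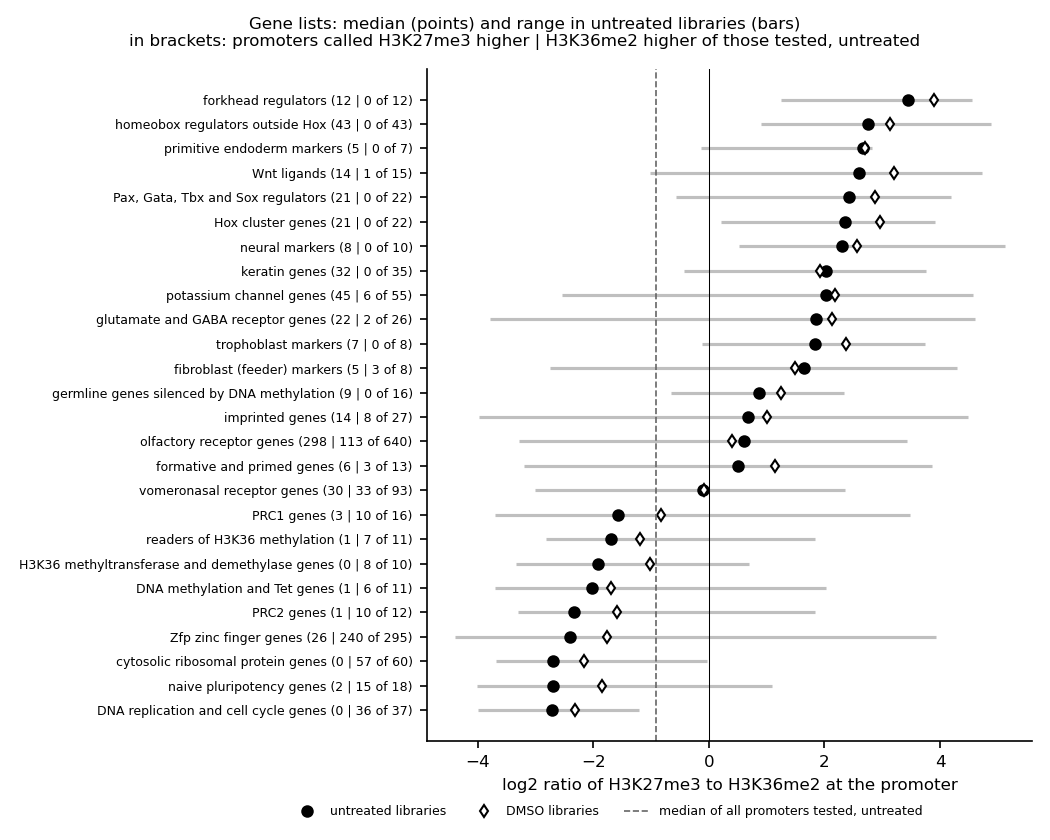
Median (points) and range (bars) of the promoter log2 ratio in 26 gene lists, with the counts of promoters called for each mark in brackets. Filled circles are the untreated and open diamonds the DMSO libraries, and the dashed line is the median of all promoters tested (-0.92). In the untreated libraries the Hox, homeobox, forkhead and Pax, Gata, Tbx and Sox lists lie above 2. The ribosomal, replication, naive pluripotency and Zfp zinc finger lists are among those below -2.

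Imprinted genes, which are active from a single parental copy, spread over the whole range. Of 27 promoters, 14 were called H3K27me3 higher and 8 H3K36me2 higher (median 0.68), against 28.4% and 53% of all promoters. Grb10, a growth factor receptor adaptor, had 15.7 and 15.1 against 0.547 and 0.647 (4.48). Commd1, which hosts the imprinted Zrsr1, had 0.130 and 0.0667 against 3.06 and 2.94 (-3.98). Zim1 stood in the middle (0.68 ± 0.25), was at -0.14 in DMSO and lost its call without H3K27me3 replicate 2 or either H3K36me2 library (limma adjusted p = 0.142, 0.128 and 0.111). Reads were not assigned to parental copies.

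H3K27me3 and H3K36me2 were not simply exclusive at promoters. A mark was taken as high where both of its libraries reached 2 times the genome average. Both marks were high at 1496 promoters (9.09%), H3K27me3 alone at 2334 (14.2%), H3K36me2 alone at 1425 (8.66%) and neither at 9065 (55.1%), and replicates fell on different sides of the line at 2136 (13.0%). In DMSO, 84.1% of the first class, 84.1% of the second, 61.3% of the third and 94.8% of the fourth fell in the same class. A level is an average over cells and chromosomes, and whether the marks lay on the same histone tails cannot be told apart from a mixture.

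The class with both marks was closest to that with H3K36me2 alone in CG content and in H3K27me2, but not in body H3K36me3. Its listed promoters had a median of 8 CG dinucleotides per 300 bases and 43.6% had 10 or more, against 16 and 65.4% with H3K27me3 alone, 10 and 50.2% with H3K36me2 alone, and 16 and 59.8% with neither. H3K27me2 at the promoter was 1.66 in the class with both, 0.861 with H3K27me3 alone, 1.89 with H3K36me2 alone and 0.657 with neither. The bodies of genes of 5 kb or more carried H3K36me3 at 1.68, 0.919, 3.28 and 2.79 in the same order. These are medians over genes, given as a description with no test.

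Germline genes that DNA methylation silences in somatic cells fell in the class with both marks in 9 of 17 cases, against 9.09% of all promoters, and 2 more were high in H3K27me3 alone. Of the 16 tested, 9 were called H3K27me3 higher, none H3K36me2 higher and 7 were not called (median ratio 0.86), against 28.4% and 53% of all promoters. In DMSO 11 were called H3K27me3 higher and 1 H3K36me2 higher, against 30.6% and 47.3%. Dazl, an RNA-binding protein of germ cells, had 5.92 and 4.43 of H3K27me3 and 2.79 and 2.30 of H3K36me2 (0.99 ± 0.27), and its call was lost without H3K36me2 replicate 1 or 2 (limma adjusted p = 0.0512 and 0.0908). Slc25a31, a testis ADP/ATP carrier, was highest (10.5 and 9.74 against 1.58 and 2.34, ratio 2.33), and Stra8, the meiotic entry gene, lowest (1.58 and 2.42 against 3.30 and 3.02, ratio -0.66 ± 0.28, limma adjusted p = 0.0579). Stra8 was called H3K36me2 higher in DMSO (-1.11, limma adjusted p = 0.00701), with promoters of 2.5 kb, voom or a pseudocount of 0.5, and without H3K27me3 replicate 2. Elf5, a trophoblast factor, had a similar makeup, with 4.31 and 3.11 against 4.31 and 3.68.

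Across promoters ordered by H3K27me3, median H3K36me2 was highest in the middle. Its median was 1.05 and 0.848 where H3K27me3 was under 0.125, 1.91 and 1.74 where H3K27me3 was 2 to 4, 1.54 and 1.36 at 8 to 16 (915 promoters), and 1.05 and 0.948 at 16 or more (28 promoters). CG content moved along the same order, from a median of 19 at the lowest H3K27me3 through 6 at 1 to 2 to 21 at 8 to 16 and 30 above, and its part in the pattern was not tested. The 28 promoters with the most H3K27me3 had a median H3K36me2 close to that of the promoters with the least in the untreated libraries but not in DMSO, where it was 1.30 and 1.62 against 0.898 and 0.891.

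H3K36me2 was the higher mark in most gene bodies, and fewer bodies than promoters were at 2 or more for H3K27me3 (21.9% and 20.7%), while the median H3K27me3 of bodies was 0.523 and 0.508. Of 12019 bodies tested, 10459 were called (87%), with H3K27me3 higher in 2923 (24.3%) and H3K36me2 higher in 7536 (62.7%), and the median ratio was -1.1. Of the bodies called H3K27me3 higher, 1427 differed at least 2-fold. Tchh, a structural protein of hair follicles, had the highest ratio, with 9.31 and 8.50 of H3K27me3 against 0.411 and 0.191 of H3K36me2 (4.54). The growth factor gene Igf2 (10.3 and 11.4 against 0.606 and 0.746, ratio 3.82) and the craniofacial factor Hmx1 (15.4 and 15.5 against 1.31 and 1.13, ratio 3.56) followed with Tmem200c, Zfp503, Kcnk15, Hoxb8, Krt2, Evx2 and Cartpt, whose ratios were 3.21 to 4.14. These 10 genes were 5.12 to 16 kb long. On the other side Ifitm7, of the interferon-induced transmembrane family, had 0.0371 and 0.0148 of H3K27me3 against 2.97 and 2.54 of H3K36me2 (-4.50). Rdh7, a retinol dehydrogenase, had the most H3K36me2 of its group, 4.68 and 3.48 (-3.58). C77080, Il3ra, Sdr9c7, Hic2, Manbal, Fbxo36, Fam25c and Gstm3 had ratios of -3.90 to -3.57.

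Bodies were split by H3K36me3, the mark of transcribed genes, which neither side of the comparison used. Genes of 5 kb or more were ordered by the H3K36me3 of their bodies and cut into 10 groups of equal size, numbered from the lowest. H3K27me3 had a median of 0.286 and 0.351 in group 1, 2.10 and 1.98 in group 4 and 0.207 and 0.169 in group 10. H3K36me2 went from 0.143 and 0.182 through 2.30 and 2.10 in group 5 to 1.29 and 1.09 in group 10. Both marks were low where H3K36me3 was lowest, and from group 5 on H3K27me3 was the lower of the marks in both libraries. The median ratio of the bodies that reached the filter went from 0.84 to -1.98. H3K27me3 was called higher in 564 of 768 bodies tested in group 1 and 18 of 1261 in group 10, and H3K36me2 in 62 and 1208. Over all bodies tested the shares were 24.3% and 62.7%. Group 1 held 1278 genes, and the levels above are medians over all genes of a group, tested or not. The groups share their 6 libraries, and genes are not independent replicates, so no test was made.

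**Figure D4:**
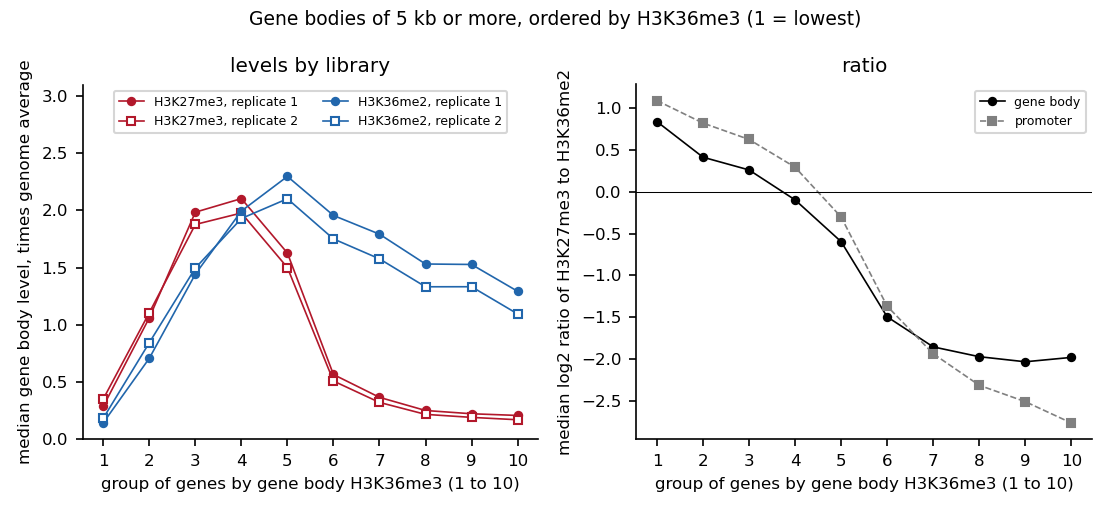
Left, median gene body level of H3K27me3 and H3K36me2 in each untreated library over 10 groups of genes by H3K36me3 (1 is lowest); right, median log2 ratio in the body and at the promoter. H3K27me3 is highest in group 4 and H3K36me2 in group 5, and the body ratio goes from 0.84 to -1.98.

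The marks also divided single genes differently between promoter and body. The test was the log2 ratio at the promoter minus that of the body, in which the library's scale largely cancels. Of 11844 genes, 6375 were called (53.8%), 3364 with H3K27me3 shifted towards the promoter (28.4%) and 3011 with H3K36me2 shifted towards it (25.4%). The median difference was -0.04. With 1 library left out the median was -0.054 to 0.042. Fewer genes were called without 1 of the H3K36me2 libraries, in fits whose spread came from the H3K27me3 libraries alone. In DMSO the counts were 3985 and 1485, and 88.9% of the first group and 41.6% of the second had the same call there. At promoters the first H3K36me2 library was the higher one, by a median of 0.16 on the log2 scale.

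At each end of this difference 5 genes were named. Neto2, an auxiliary subunit of kainate receptors, had 5.20 and 6.14 of H3K27me3 against 0.259 and 0.293 of H3K36me2 at the promoter, and 0.217 and 0.316 against 0.547 and 0.630 in the body, a difference of 4.86. Zswim6 (4.82) had the same arrangement, and the body of Grm7 (4.80) was not called. Fcgr3 and Rsrc1 were named by the same rule (5.06 and 4.70), but their promoter ratios, 3.34 and 3.62 at the gene model's end, were -1.41 and -0.38 at RefSeq promoters 6.51 and 4.30 kb away. The reverse arrangement was seen in Ccdc151, an outer dynein arm assembly factor, with 0.130 and 0.133 against 2.44 and 1.74 at the promoter and 6.07 and 5.72 against 3.06 and 2.65 in the body (-4.25). Polrmt, the mitochondrial RNA polymerase, Uvssa, a transcription-coupled repair factor, Jak3, a cytokine receptor kinase, and Il11ra1, a receptor of interleukin 11, had differences of -4.09 to -4.03. Of the 5 bodies, those of Polrmt (0.84), Jak3 (0.35) and Il11ra1 (1.14) lost their H3K27me3-higher call in DMSO (0.39, 0.06 and 0.21, limma adjusted p = 0.118, 0.821 and 0.327). The last pair also lost it over the whole gene (0.12 and 0.18, limma adjusted p = 0.453 and 0.256), and Jak3 without H3K27me3 replicate 1 or H3K36me2 replicate 2 (limma adjusted p = 0.179 and 0.325).

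Promoter and body of a gene mostly had the same call, which does not mean that only the called mark was present. Of these bodies, 11.4% were at 2 or more for both marks and 61.6% for neither. Of 12774 genes of 5 kb or more, 5996 (46.9%) were called H3K36me2 higher at both promoter and body and 2058 (16.1%) H3K27me3 higher at both. The mixed patterns were less common: 465 genes (3.64%) were called H3K27me3 higher at the promoter and H3K36me2 higher in the body, and 223 (1.75%) the reverse. Length went with the split. The median difference between promoter and body was -0.26 in genes of 5 to 10 kb and 1.2 in genes of 200 kb or more. In DMSO these medians were 0.04 and 1.58, so the sign in the shorter genes was not kept. Of 690 genes of 200 kb or more, 402 were called with H3K27me3 towards the promoter and 96 the other way. Over all genes tested the shares were 28.4% and 25.4%. H3K36me3 of the body was lower in the longest genes, with medians of 2.54 and 0.626, and its part in this was not tested.

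The repeat in DMSO gave nearly the same promoter and body calls. Of 15282 promoters tested there, 77.8% were called, 30.6% H3K27me3 higher and 47.3% H3K36me2 higher, with a median ratio of -0.53. Of the untreated calls, 89.5% for H3K27me3 and 86.7% for H3K36me2 were made again, and 1 and 21 promoters had the opposite call. Of 12225 bodies, 85.2% were called, 23.2% H3K27me3 higher and 62% H3K36me2 higher, and 87.2% and 95.4% of the untreated calls were made again. For promoter against body, 45.5% of 12018 genes were called, 33.2% and 12.4% in the 2 directions. Solvent, the days of treatment and the added Drosophila chromatin all differ between the untreated and DMSO libraries and cannot be told apart.

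Domain edges were examined next. Of 43094 replicated H3K27me3 peaks deposited by the authors, 15784 were autosomal and 10 kb or longer, and 16968 of their 31568 edges had no other H3K27me3 peak in the 5 kb outside. The step at an edge was the log2 level in the 5 kb inside minus that in the 5 kb outside, after 0.1 was added. For H3K27me3 in the untreated libraries the step was set by the peak calls and is given as a description, a median of 1.59 and 1.5. In the DMSO libraries, which the calls did not use, it was 1.49 and 1.47, and 92.4% of edges were called higher inside and 0.183% lower.

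H3K36me2 was more often higher inside the H3K27me3 domain than lower. The median step was 0.388 and 0.371 in the untreated libraries, and 62.3% of edges were called, 8840 higher inside (52.1%) and 1726 lower inside (10.2%). At least 2-fold, the shares were 22.0% and 1.06%. Mean H3K36me2 was 1.41 and 1.36 at 5 kb outside, 1.43 and 1.40 at 0.5 kb outside, 1.93 and 1.86 at 0.5 kb inside and 1.78 and 1.76 at 5 kb inside. H3K27me3 climbed more steeply over the same distance, from 0.757 in each library to 2.89 and 2.81, and the log2 ratio went from -0.99 at 2 kb outside through -0.14 at the edge to 0.50 at 2 kb and 0.69 at 5 kb inside. The median step of H3K36me3, 0.322 and 0.406, was of the same size as that of H3K36me2, although its mean level was 1.16 and 1.21 inside against 1.16 and 1.2 outside. It was 0.0511 and 0.118 for H3K27me2 and -0.183 and -0.179 for H3K27me1.

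**Figure D5:**
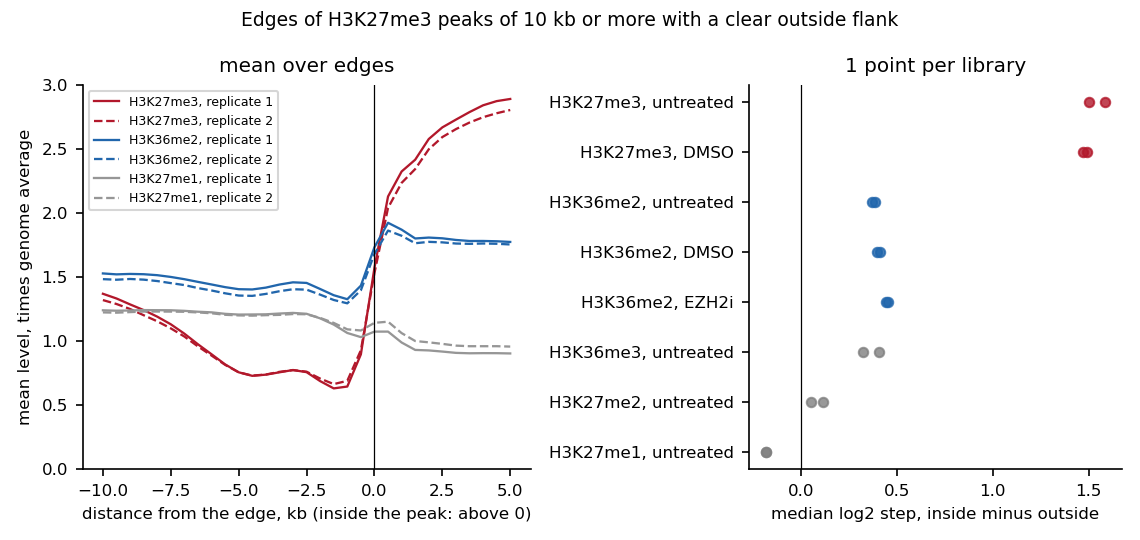
Left, mean level of H3K27me3, H3K36me2 and H3K27me1 (multiples of the genome average) by distance from 16968 edges of H3K27me3 peaks in each untreated library; right, the median log2 step, inside minus outside, with 1 point per library. H3K36me2 steps lie between 0.371 and 0.453 in every group, H3K27me3 steps at 1.47 or above and H3K27me1 steps below 0.

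The H3K36me2 step varied with what lay outside. Where the outside flank had H3K36me3 under 0.25, 88.0% of 3564 edges were called higher inside and 0.870% lower. H3K36me2 there was 0.765 inside and 0.220 outside in the median. The other marks also stepped up at these edges, with medians of 0.551 for H3K27me1, 0.655 for H3K27me2 and 1.33 for H3K36me3. Where outside H3K36me3 was 1 to 2, the shares were 26.4% and 16.7% of 3529 edges, and H3K36me2 was 2.46 inside and 2.37 outside in the median. At 4 or more, 62.2% of 965 edges were again higher inside. Against the authors' H3K36me2 peaks, 6083 edges (35.8%) had both flanks wholly within such peaks and 5027 (29.6%) had neither flank in one. Of the first group 1864 were called higher inside and 604 lower, with a median step of 0.146. Of the second 3309 and 339 were called, with a median step of 0.647. Among 2244 edges with a flank at under 0.5 of H3K27me1, 86.3% were higher inside, and median outside H3K36me2 and H3K36me3 there were 0.162 and 0.114. With these left out and the remaining 14724 refitted, 47.5% were called higher inside and 11.5% lower (59% in all), with a median step of 0.301.

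Of the largest called steps, 4 are given here, and all lay at such places. At the edge inside Itgb3, the integrin beta 3 gene, at position 104655500 of chromosome 11 (build mm10), H3K36me2 was 3.94 and 3.65 inside and 0.0334 and 0.0432 outside (4.82), with H3K27me1 at 1.1 and 0.0268. The other 3, on chromosomes 7, 5 and 19, had steps of 4.92, 4.83 and 4.81 and outside H3K27me1 of 0 to 0.0216. Outside these 4 edges H3K27me3 was at most 0.163 and H3K36me3 at most 0.0388, and the part of these low levels in the step was not tested. Among edges with H3K27me1 of 0.5 or more in both flanks, the 5 largest steps were 4.44 to 3.66. In 2 of these, the edges of a peak over Sfi1 on chromosome 11, a centrin-binding protein gene (4.39 and 3.66), every mark was high inside: H3K36me2 29.3 and 21.8, H3K27me3 19.7 and 10.1, H3K27me2 37.1 and 22.5, H3K27me1 49.0 and 24.5, and H3K36me3 15.7 and 28.9. At the remaining edges, on chromosomes 17, 7 and 9, every mark was also higher inside than outside. H3K36me3 was 3.41, 4.72 and 10.2 inside and 0.113, 0.303 and 0.270 outside, in that order. H3K27me1 was 2.54, 2.00 and 4.78 inside and 0.802, 0.620 and 1.70 outside. The edge on chromosome 17 had a step of 4.44, and 2.09 in DMSO. At an edge on chromosome 7 by Zfp575 and Ethe1, H3K36me2 was 3.81 and 3.90 inside and 0.111 and 0.0801 outside (4.34, and 3.67 in DMSO), and an edge on chromosome 9 had a step of 4.07, and 2.07 in DMSO. These 5 edges were chosen after their values were seen.

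Edges where H3K36me2 fell on entering the domain were fewer. The 5 with the lowest steps had H3K36me3 of 1.04 to 1.94 outside, more than inside. At position 65163500 of chromosome 11, with Arhgap44 outside and Myocd, the cardiac coactivator gene, within the peak, H3K27me3 went from 0.780 and 0.818 outside to 1.84 and 2.65 inside and H3K36me2 from 2.19 and 2.21 to 0.389 and 0.456, a step of -2.14 ± 0.13. H3K36me3 was 1.94 outside and 0.351 inside. An edge within Tmem132d, at position 127835500 of chromosome 5, had a step of -1.92, with H3K36me2 of 2.25 and 2.21 outside and 0.619 and 0.425 inside. The other 3 of the 5 lowest, on chromosomes 2, 16 and 13, had steps of -2.06, -1.87 and -1.71, and at the first of these H3K27me3 was higher inside in only 1 of 4 libraries: it was 1.1 inside against 1.37 outside in untreated replicate 1, and 1.02 against 1.32 and 1.01 against 1.47 in DMSO. In DMSO these 5 steps were -1.85 to -1.25. Over all 1726 edges of this kind, median outside H3K36me3 was 0.946 against 0.391 at the 8840 edges where H3K36me2 was higher inside and 0.981 at the 6402 not called.

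Hox clusters, which each hold a large H3K27me3 peak of 94.0 to 147 kb, gave both directions. At the left edge of the Hoxb peak H3K36me2 was 1.62 and 1.41 inside and 0.793 and 0.845 outside (step 0.81, limma adjusted p = 0.000646), and in DMSO the call was lost (0.03, adjusted p = 0.824). At the left edge of the Hoxd peak it was 0.660 and 0.875 inside and 1.31 and 1.52 outside (-0.81, limma adjusted p = 0.000513), and -0.51 in DMSO. The right Hoxd edge had a step of -0.37 (limma adjusted p = 0.0338), a call that was lost in DMSO (-0.13, adjusted p = 0.342) and from 1 to 5 kb (adjusted p = 0.0559). Relative to the H3K27me1 step neither Hoxd edge was called (-0.16, adjusted p = 0.294, and -0.13, adjusted p = 0.388, limma). The Hoxc edges, at -0.23 and -0.28, were not called (limma adjusted p = 0.149 and 0.0878, the latter 0.0384 with a pseudocount of 0.5), and the Hoxa edges and the right Hoxb edge were not tested because another H3K27me3 peak lay in the outside flank.

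The H3K36me2 step was present in all 3 conditions. Its median was 0.396 and 0.412 after DMSO, where 59.4% of edges were called higher inside and 9.06% lower (68.4% in all), and 0.442 and 0.453 after the EZH2 inhibitor. The difference between inhibitor and DMSO means was 0.0434, and between DMSO and untreated 0.0244, each with an exact two-sided permutation p of 0.33, the smallest that 2 against 2 libraries allow. With flanks of 2 kb on the same edges the differences were 0.0134 and 0.0288, each with an exact permutation p of 0.667. The edges are those of untreated cells throughout, and H3K27me3 after the inhibitor was not analysed here.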

How the data were processed

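Per the submitters' processing notes the reads were trimmed with Trim Galore 0.4.2, aligned with Bowtie2 2.2.6.2 to mm10 (and dm3 for the Drosophila chromatin), and peaks were called with SICER. The authors deposited each library as a track of log2(1 + RPM), RPM being reads scaled to library size, and peak lists with a score per peak, which was not used. In the DMSO and inhibitor tracks the values were log2(1 + reads times a factor), which cancels here. Tracks were read in 1 kb windows, made linear and divided by the library's autosomal mean. No input library was used and no background was subtracted. Gene models and promoter sequences were those of RefSeq, GRCm38.p6. Log2(level + 0.1) was tested with limma 3.58.1 (R 4.3.3), with features under a mean level of 0.2 left out and Benjamini-Hochberg adjustment over all features. The fits were also run on simulated reads in which few features differed, unlike in these data, and no result here rests on that run. Estimated reads per library rest on values that were whole multiples of 1 read within 0.02. Named promoters and bodies were the 10 highest and 10 lowest ratios among called features whose higher mark was at 2 or more in both its libraries and whose lower mark was under 2 in both, for promoters with no other 5′ end within 2 kb. The 5 highest and 5 lowest promoter against body values and edge steps, the highest, median and lowest member of each list, the Hox peak edges and a set of examples were also named. The members and lists were chosen with earlier results of these data known. Alternatives to scaling, filter, pseudocount, windows, libraries and edges were run. One edge that the naming rule selected is not reported here.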

Additional observations from a re-analysis of the deposited data

How the results depend on the processing

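Calls at the threshold mostly held, and medians moved with scale and filter. The median promoter ratio (-0.92) was -0.84 with promoters of 2.5 kb, -0.53 in DMSO, -0.44 after division by the autosomal median, -1.04 with voom, -0.69 with a mean level of 0.5 or more, -0.66 with no filter, -0.59 without genes that have another 5′ end nearby and -0.65 with a pseudocount of 0.5, and -0.96 to -0.76 with 1 library left out. The median body ratio (-1.10) was -1.0 in DMSO, -0.70 with the autosomal median, -1.21 with voom, -0.81 at 0.5 or more, -1.36 with the median over windows and -0.75 with a pseudocount of 0.5, and -1.17 to -0.96 with 1 library left out. For promoter against body the median (-0.04) was 0.29 in DMSO, 0.10 at 0.5 or more and 0.11 with the median over windows, and -0.054 to 0.042 with 1 library left out. Counts with 1 library left out were 3469 to 4258 and 6389 to 8061 at promoters (H3K27me3 and H3K36me2 higher), 2597 to 2816 and 6843 to 7634 in bodies, and 1963 to 3765 and 1140 to 3623 for promoter against body, where DMSO gave 1485 towards H3K36me2. With a 2-fold minimum 1427 bodies were H3K27me3 higher. At edges the H3K36me2 shares were 22.0% and 1.06% at 2-fold, and lower inside 6.16% with flanks of 2 kb, which also let in more edges (31568 in place of 16968), and 4.73% relative to H3K27me1. The median H3K36me2 step was 0.365 with 10 kb outside, 0.358 from 1 to 5 kb, 0.405 in DMSO, 0.301 with H3K27me1 of 0.5 or more, 0.295 over all edges, 0.478 with 2 kb over the 31568 edges (0.479 and 0.431 by library on the 16968 edges), 0.596 relative to H3K27me1, 0.368 for peaks of 20 kb or more and 0.288 with a pseudocount of 0.5 (0.371 to 0.388 with 1 library left out). In DMSO, H3K27me3 lower inside was 0 at 2-fold, 3.02% over all edges, 0.526% with 2 kb and its 31568 edges and 0.0783% for peaks of 20 kb or more, and its median step (1.48) was 1.5 with 10 kb outside, 1.39, 1.08, 1.31 and 1.60 with H3K27me1 of 0.5 or more, all edges, 2 kb and peaks of 20 kb or more, and 1.12 with a pseudocount of 0.5 (1.47 to 1.49). At the RefSeq promoter Fcgr3 (-1.41), Grik5 (0.99), Lin28b (-0.35), Rsrc1 (-0.38), Tet3 (-0.18) and Wnt6 (3.19) changed sign, in DMSO the promoters of Il3ra (0.10), Sox21 (0.90) and Zim1 (-0.14), and with the median over windows the body of Jak3 (-0.039). The cause was not tested. The replicate block gave 4366 and 8107 promoter, 3051 and 7622 body and 3363 and 3126 promoter against body calls. Same-numbered libraries deviated together with a correlation of 0.0890 at promoters and 0.266 in bodies over only 2 pairs, so the numbers were not taken to pair them. The RefSeq promoter, promoter against body in DMSO, and the H3K27me1 settings were chosen after seeing the data. With 1 read worth 0.0371 to 0.0890 of the average in a 1 kb window, H3K27me3 levels under these values are limited by depth.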
